A study of Homo sapiens with 4 samples.

Results

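The E2F transcription factors E2F1 to E2F8 and the retinoblastoma gene RB1 were described by the m6A peaks listed at their genomic loci in RWPE1 cells. The members were all peaks on the gene's strand that overlapped one of 9 gene loci of the hg19 build, with the limits of each locus set in whole kb. This gave 21 peaks, 5 of the 10087 peaks listed for control cells and 16 of the 10323 peaks listed for FTO knockdown cells. RWPE1 is a line of normal human prostate epithelium that was immortalized with human papillomavirus. The cells were infected with a lentivirus that carried an shRNA against the m6A demethylase FTO (shFTO), or with vector as control (shCtrl). Stable lines were kept under puromycin. Each condition was measured by MeRIP-seq, in which fragments bound by an antibody against m6A (IP) are sequenced beside the unselected input RNA, with 1 IP and 1 input library. There were thus 4 libraries and no replicates, so a difference between the lists has no replicate error and was not tested, and the files give no read depth.

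E2F proteins bind the promoters of genes for DNA replication and cell cycle entry. E2F1, E2F2 and E2F3 mainly activate these genes, E2F4 and E2F5 mainly repress them together with the pocket proteins related to RB1, E2F6 represses them without a pocket protein, and the atypical members E2F7 and E2F8 repress them without a DP partner. RB1 holds the activators in check until cyclin-dependent kinases phosphorylate it, and the E7 protein of papillomaviruses binds RB1 and removes this hold. m6A is placed on mRNA by a methyltransferase complex and removed by FTO and ALKBH5, and in many cell types it is densest near stop codons and in the last exon. The study reported E2F2 as a direct target of FTO. It showed a rise of the m6A peaks on E2F2 after FTO knockdown in a browser view of its MeRIP-seq of RWPE1 cells. By MeRIP with qRT-PCR it measured more m6A on E2F2 mRNA in these knockdown cells. It also found less E2F2 protein after FTO knockdown, an effect that ZFHX3 deficiency partly inhibited. The peak lists used here come from that same MeRIP-seq, so they are not separate evidence for E2F2. The listed peaks of the whole family are given here.

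The gene limits were checked against the RefSeq gene table of GRCh38.p14, since no annotation of hg19 was used here. All 9 genes lay on the same chromosome there, the 7 with a promoter window lay on the same strand, and their lengths of 6764 to 178140 bp differed from those of the loci by at most 1860 bp. Whether a peak lies in an exon, an intron or a UTR was not determined, and positions are given in hg19, counted from 1. A peak was said to have a partner when 1 bp or more of it was also covered by a peak from the other condition, on either strand. The score of a peak was given by the authors' peak caller and was used only for the rank of a peak within its own list, as the percentage of peaks of that list with a lower score.

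E2F1 and E2F2 were the genes whose listed peaks came closest to the 5′ end of the locus, and the sequences before their transcription starts are shown for that reason. The sequences are the 250 bases before the RefSeq transcription start in GRCh38.p14, at chr20:33686386-33686635 for E2F1 and chr1:23531234-23531483 for E2F2, both on the minus strand and written 5′ to 3′. Capitals mark exact matches to TTTGGCGC or TTTCGCGC, forms of the E2F recognition motif, searched on both strands. Other forms of the motif were not searched and are not marked.
E2F1: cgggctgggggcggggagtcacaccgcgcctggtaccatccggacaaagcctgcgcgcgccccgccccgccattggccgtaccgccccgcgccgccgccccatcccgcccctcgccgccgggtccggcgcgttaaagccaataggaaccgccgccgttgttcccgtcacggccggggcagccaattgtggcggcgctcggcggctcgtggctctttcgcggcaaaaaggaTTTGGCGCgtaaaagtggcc
E2F2: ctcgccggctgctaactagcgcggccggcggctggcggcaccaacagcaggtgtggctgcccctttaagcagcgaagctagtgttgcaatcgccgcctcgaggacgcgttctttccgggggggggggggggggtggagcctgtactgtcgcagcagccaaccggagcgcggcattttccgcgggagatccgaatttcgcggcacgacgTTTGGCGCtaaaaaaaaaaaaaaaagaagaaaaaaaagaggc
The motif began 20 bases before the start of E2F1 and 42 bases before the start of E2F2. The reference table held windows of 300 bases around a start for 7 of the 9 genes, and E2F1 and E2F2 were the 2 genes with such an exact match in a window. A match was found in 1.15% of all 35116 windows. A window without a match was not searched for other forms of the motif, so it is not shown to lack an E2F site. A match of these letters is a description of the sequence alone, and the windows were not placed against the peaks, which are in another build.

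More peaks of the family were listed in FTO knockdown cells than in control cells. The shFTO list held 16 peaks at 6 of the 9 genes, and they covered 7695 bp. The shCtrl list held 5 peaks at 4 genes, and they covered 1854 bp. All peaks of the shFTO list covered 5526716 bp and all peaks of the shCtrl list 4121647 bp, so the shFTO list had the larger cover as a whole too. The shFTO peaks made up 76.2% of the 21 peaks (95% exact Clopper-Pearson interval 52.8% to 91.8%), against 50.6% of all 20410 peaks of both lists. Without E2F2, which the study itself singled out, they made up 70.6% of 17 peaks (44.0% to 89.7%). These intervals cover counting error only and treat peaks of 1 gene as independent, which they are not. The peaks of E2F1, E2F2 and E2F6 were listed in shFTO cells alone, the peak of E2F8 in shCtrl cells alone, peaks of E2F3, E2F7 and RB1 in both, and none for E2F4 and E2F5. For comparison, the genome was cut into tiles of 50 kb on each strand, and of the 10579 tiles with a peak in either list 32.0% held shFTO peaks alone and 32.7% held shCtrl peaks alone. Loci differ from tiles in length, so 3 of 7 genes with shFTO peaks alone and 1 of 7 with shCtrl peaks alone can only be read beside these shares, without a test.

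**Figure D1:**
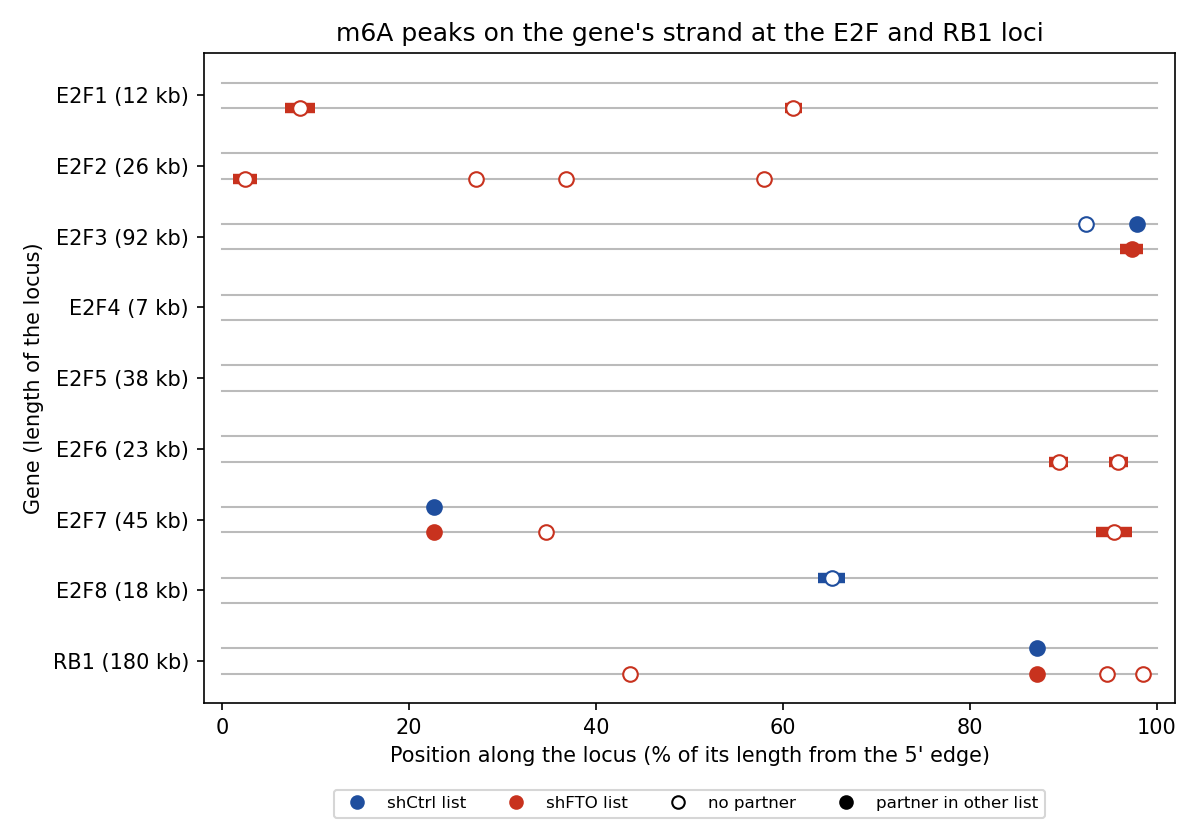
Listed m6A peaks along the 9 loci, with the position on the x axis as the percentage of the locus from its 5′ edge and 1 line per list for each gene (upper line shCtrl, lower line shFTO). Circles mark peak centres, thick bars the width of peaks to scale, and filled circles peaks with a partner in the other list; the 4 E2F2 peaks lie in the 5′ and middle part of the locus and appear on the shFTO line alone.

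Most peaks of the family in knockdown cells had no partner in control cells, but so had most peaks of the whole list. Of the 16 shFTO peaks 13 had no partner, or 81.2% (54.4% to 96.0%), and over the whole shFTO list the share was 80.4%. Of the 5 shCtrl peaks 2 had no partner, or 40.0% (5.27% to 85.3%), and over the whole shCtrl list it was 79.8%. The share without a partner at these loci in the shFTO list was therefore close to that of the whole list and is no particular feature of the family, and the share in the shCtrl list rests on 5 peaks. What differed between the lists at these loci was the number of peaks, which could not be tested.

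**Figure D2:**
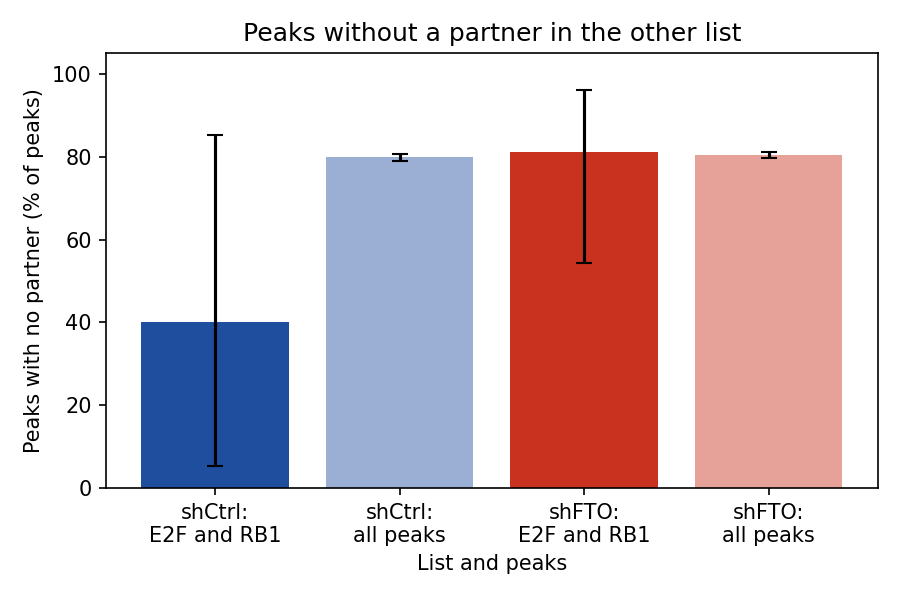
Percentage of peaks with no partner in the other list (y axis) for the E2F and RB1 peaks and for all peaks of each list (x axis). Bars start at 0 and lines are 95% exact intervals for counting error; the shFTO bars stand at 81.2% and 80.4%, and the interval of the 5 shCtrl family peaks runs from 5.27% to 85.3%.

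Among the activators, E2F1, E2F2 and E2F3 together had 7 shFTO peaks that covered 3994 bp and 2 shCtrl peaks that covered 918 bp. E2F2 had the largest number of peaks without a partner, 4 in the shFTO list and 0 in the shCtrl list. From the 5′ to the 3′ end they lay at chr1:23857034-23857712 with a score of 286.3, at chr1:23850919-23850980 with a score of 139.75, at chr1:23848329-23848548 with a score of 285.05 and at chr1:23842827-23843019 with a score of 377.84, all on the minus strand. The first of them was the widest, at 679 bp, and ended 288 bp inside the 5′ edge of the locus. The second was 62 bp wide, and only 2.80% of the shFTO peaks were narrower.

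Within the shFTO list the E2F2 peaks were of middle rank. Their scores exceeded those of 36.7% to 63.0% of the list, and 3 of the 4 lay above its median. The centres of the peaks lay between 2.41% and 58.0% of the way through the locus from its 5′ edge, so no E2F2 peak was listed in the 3′ part of the gene. The nearest shCtrl peak on the same strand was 60307 bp from the last E2F2 peak. Among the 231 tiles of 50 kb that held at least 4 shFTO peaks, 14.7% held no shCtrl peak. The 4 E2F2 peaks lay on both sides of a tile border and did not share a tile, so this share is only a rough comparison for E2F2.

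A peak that is not listed was not necessarily absent from the authors' calls. The peaks are named with running numbers that followed the position along each of the 24 chromosomes in both lists, and the lists held 5.80% (shCtrl) and 6.39% (shFTO) of the highest number. Around E2F2 the nearest listed shCtrl peaks before and after the locus, strand ignored, lay 322356 bp apart. Between them 36 numbers belonged to no listed peak. In the shFTO list 43 numbers were without a listed peak over 298310 bp, and 4 of these fell between the first and the last of the 4 E2F2 peaks. The positions and strands of these unlisted numbers are not known, so the lists do not show whether a peak at E2F2 was called in control cells and left out.

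E2F1 had 2 shFTO peaks and 0 shCtrl peaks. The peak at chr20:32273810-32274190 (minus strand, 381 bp, score 145.46) ended 810 bp inside the 5′ edge of the locus. The peak at chr20:32267561-32267780 (220 bp) lay 61.1% of the way through the locus, and its score of 591.72 exceeded that of 72.7% of the shFTO list, the highest rank of all family peaks without a partner. The nearest shCtrl peak on this strand was 282670 bp away. In the shCtrl list 42 numbers were without a listed peak between the listed peaks before and after E2F1, over 185686 bp. These flanking peaks were taken from both strands, so this span can be shorter than the distance on the gene's strand.

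E2F3 had peaks in both lists, at the 3′ end of its locus of 92 kb. In shCtrl cells a peak of 803 bp at chr6:20491676-20492478 (plus strand, score 252.04) was listed, and in shFTO cells a peak of 2239 bp at chr6:20490399-20492637 (score 653.16) that held the whole shCtrl peak. The shFTO peak was 1436 bp wider, a ratio of 2.79, and most of the added length lay on the 5′ side, where its edge was 1277 bp further out, against 159 bp on the 3′ side. Of all 2037 overlapping pairs of peaks in the lists, 691 were wider in shFTO, 232 were wider in shCtrl and 1114 were of equal width, and 5.45% had a ratio at least as large as that of E2F3. The rank of the score within its list was 61.1% for the shCtrl peak and 74.5% for the shFTO peak. A further E2F3 peak of 115 bp at chr6:20486920-20487034 (score 102.54) was listed in shCtrl cells alone, 3364 bp from the shFTO peak.

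**Figure D3:**
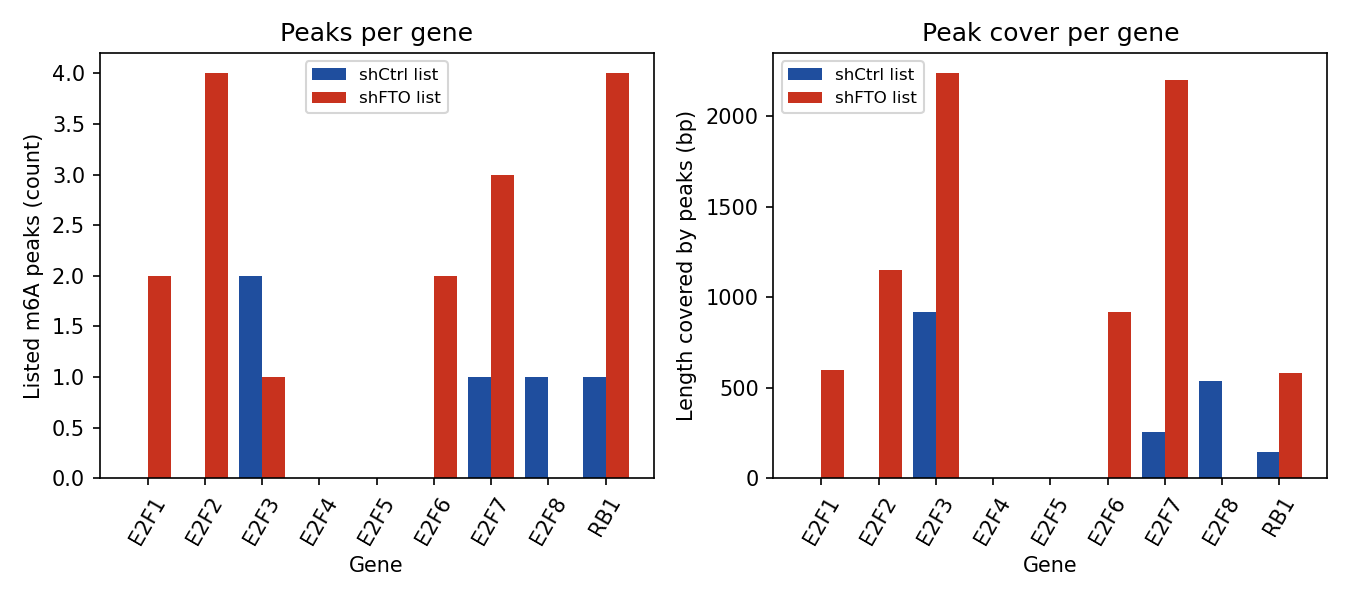
Number of listed m6A peaks (left) and base pairs covered by them (right) for each of the 9 genes, in the shCtrl list (blue) and the shFTO list (red). E2F2 and RB1 had 4 shFTO peaks each, while E2F3 and E2F7 covered the most length in the shFTO list, 2239 bp and 2201 bp.

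Of the repressors E2F4, E2F5 and E2F6, E2F6 alone had listed peaks, 2 in shFTO cells and 0 in shCtrl cells. They lay near the 3′ end of the locus, at chr2:11586191-11586649 (minus strand, 459 bp) and chr2:11584724-11585181 (458 bp). Their scores of 52.0 and 177.01 exceeded those of 1.27% and 43.8% of the shFTO list, so the first stood close to the lowest score listed, 50.05. The nearest shCtrl peak on the strand was 157958 bp away. No peak was listed for E2F4 and E2F5 in either list, and their loci measure 7 and 38 kb.

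The atypical repressors differed from each other. E2F7 had 1 shCtrl peak and 3 shFTO peaks. The shCtrl peak at chr12:77449656-77449910 (minus strand, 255 bp) lay wholly within the shFTO peak at chr12:77449635-77449910 (276 bp), and both shared the 5′ edge. This peak had a rank of 64.4% among the shCtrl peaks and of 39.7% among the shFTO peaks. The other shFTO peaks of E2F7 lay at chr12:77444356-77444526 (171 bp, score 281.42) and at chr12:77416212-77417965 near the 3′ end of the locus. The last was wide, at 1754 bp, but its score of 91.9 exceeded that of only 22.3% of the list. E2F8 was the only gene of the family with a peak in the shCtrl list and none in the shFTO list. The E2F8 peak lay at chr11:19251001-19251535 (minus strand, 535 bp). Its score of 320.86 was the highest of the 5 shCtrl peaks of the family and exceeded that of 67.5% of the list. The nearest shFTO peak on this strand was 595010 bp away. Between the listed shFTO peaks before and after E2F8, strand ignored, 43 numbers were without a listed peak.

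RB1 had 1 shCtrl peak and 4 shFTO peaks over its locus of 180 kb. The shCtrl peak at chr13:49033824-49033969 (plus strand, 146 bp) was listed with the same first and last base in shFTO cells. It ranked at 41.8% among the shCtrl peaks and at 23.8% among the shFTO peaks. The other 3 peaks, in shFTO cells alone, lay at chr13:48955442-48955579 (138 bp, score 280.88), chr13:49047496-49047526 (31 bp, score 104.5) and chr13:49054134-49054401 (268 bp, score 53.45). All 4 together covered 583 bp, less than the 1154 bp covered by the 4 peaks of E2F2. The nearest shCtrl peak on the strand was the shared RB1 peak for all 3, at 78244, 13526 and 20164 bp.

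The family held none of the peaks with the highest scores in the lists. The ranks ran from 29.8% to 67.5% in shCtrl cells and from 1.27% to 74.5% in shFTO cells, with 7 of the 16 shFTO peaks and 3 of the 5 shCtrl peaks not below the middle of their list. Scores of at least 3100 were carried by 427 of the 10087 shCtrl peaks, 639 of the 10323 shFTO peaks and 0 of the 21 family peaks. Such scores were rare in both lists, so their absence among 21 peaks is no particular feature of the family. The median width was 244 bp for the 16 shFTO peaks and 242 bp over the whole shFTO list, and 255 bp for the 5 shCtrl peaks and 212 bp over the whole shCtrl list. Of the shFTO peaks 7 had their centre in the last 20% of the locus, 2 in the first 20% (E2F1 and E2F2) and 7 between, and of the shCtrl peaks 3 lay in the last 20%, 0 in the first and 2 between. These positions are along the genomic locus, introns included, and not along the spliced mRNA.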

How the data were processed

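MeRIP-seq was done on 1 IP and 1 input library for each of shCtrl and shFTO RWPE1 cells. The submitters' processing notes name cutadapt 1.9.3, HISAT2 and hg19. The deposited files used here are 2 peak lists with MACS-style names, and the score of each peak is that deposited by the authors, read as a rank only. The peak caller's version and settings and the rule that selected the listed peaks are not given in the sources used here. The peak starts and ends were read as 0-based and written 1-based.

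Peaks were assigned to genes by strand and by loci in whole kb, and compared by overlap in Python 3.11.15 with pandas 2.3.3. The overlap step was tested on simulated peaks with known answers. Shares have 95% exact Clopper-Pearson intervals from SciPy 1.17.1. The members and lists were chosen with earlier results of these data known. All 9 genes are named, with all their peaks. Other genes of the pathway (DP proteins, pocket proteins, cyclins and their kinases) were not analysed here, because their hg19 loci were not given. For the tiles of 50 kb a peak was placed by its centre. Alternatives for overlap, score, merging, loci and strand (11 in all) and 3 chosen after seeing the data were tried.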

Additional observations from a re-analysis of the deposited data

Results flagged for a closer look

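A peak on the strand opposite to RB1 was listed within the RB1 locus in shFTO cells, at chr13:48991303-48991456 (minus strand, 154 bp, score 100.73), and 0 such peaks were listed in shCtrl cells. It drew attention because it lies outside the peaks on the strand of the gene that the comparison used. Its score exceeded that of 25.6% of the shFTO list, it had no partner, and with 1 library pair per condition the difference was not tested.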

How the results depend on the processing

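Peaks, genes and base pairs of the family, and the peaks with or without a partner, were counted under up to 11 alternatives and, after seeing the data, without E2F2. Of 96 such values 83 stayed within 1.5 times the reported one, and the other 13 came from keeping high scores alone. The count of 83 is no measure of robustness on its own, because some values could not change. Leaving out E2F2 could not alter a shCtrl value, since E2F2 had 0 shCtrl peaks, and merging peaks within 100 bp changed no value. Small counts can also shift within the limit: with scores of at least 100, 3 shCtrl peaks had no partner instead of 2. With scores not below the median of a list, and likewise with the 5000 highest scores of each list, there were 7 shFTO and 3 shCtrl peaks, of which 6 shFTO peaks had no partner and 1 in each list had a partner, and the shFTO peaks covered 3860 bp. With scores of at least 100 they covered 5068 bp. Every alternative left more peaks in the shFTO list than in the shCtrl list, from 7 to 17 against 3 to 5, and without E2F2 there were 12 and 5. Under a reciprocal overlap of at least 50% the E2F3 pair was no longer counted, which left 2 peaks with a partner in each list. Tiles with at least 4 shFTO peaks held no shCtrl peak in 21.3% of cases with tiles of 25 kb and in 11.8% with tiles of 100 kb, both chosen after seeing the data. No paired analysis was possible because there are no replicates. The unknown depth and the partial lists limit what a missing peak shows.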
